A study of Mus musculus with 12 samples.

Results

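The genes described here make up the MHC class II presentation machinery: the class II chains H2-Aa, H2-Ab1 and H2-Eb1, the invariant chain Cd74, the peptide-loading chaperone chains H2-DMa, H2-DMb1, H2-DMb2, H2-Oa and H2-Ob, and the class II transactivator Ciita. They were chosen by name and no value entered the rule, but earlier results of these data were known. They are the rows of both deposited tables whose symbol equals 1 of these names, and all 10 were found among 24533 gene rows. RNA was sequenced from 12 libraries of C57BL/6 mouse bone marrow in 4 groups of 3: lineage-negative cells (LinNeg) and LSK cells (lineage-negative, Sca-1 positive, c-Kit positive, a fraction rich in blood stem cells), each under a WT or a U2af1 KO label. U2af1 makes the smaller subunit of a splicing factor dimer and reads the AG that ends an intron. The LSK libraries also carry the label BMT, which is not spelled out. The labels give no age, no other allele or agent, and no promoter or Cre driver for the deletion, nor do they tie replicates to different mice, so each p-value reflects only the scatter of these libraries, which could be technical.

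The values are the authors' own comparisons of KO against WT within each population. Each gene has a mean of normalized counts, a log2 fold change with its standard error (SE), and an adjusted p from DESeq2, and a gene is called when that adjusted p is under 0.05. No values per library were analysed here, and library depths are unknown. The level under each genotype label is therefore derived by splitting the mean of a gene according to its fold change. In the authors' deposited table U2af1 itself was higher in libraries labelled KO, with a log2 fold change of 0.65 in LinNeg (adjusted p = 0.00293) and 0.61 in LSK (adjusted p = 1.72e-25), and a count over the whole gene does not test the deletion. Which label is the numerator of each fold change is taken from how the authors titled their tables.

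MHC class II molecules are heterodimers that show peptides from the endosome to CD4+ T cells, and they are known from dendritic cells, B cells, monocytes and macrophages. The invariant chain fills the groove of new αβ dimers and guides them to the endosome, where proteases trim it to a short remnant. H2-DM, a dimer of H2-DMa with a DMb chain, exchanges that remnant for peptide, and H2-DO, a dimer of H2-Oa with H2-Ob, inhibits H2-DM. Ciita binds no DNA itself and docks on factors that sit on paired promoter elements: RFX and CREB on the X box, and NF-Y on the Y box. In mice of the b haplotype, such as C57BL/6, the Ea gene is defective, so that H2-Eb1 has no partner chain at the surface.

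Of the 10 genes, 8 lie within 224 kb on chromosome 17 (34092340 to 34316674 in mm10), and Cd74 and Ciita lie on other chromosomes. The RefSeq promoter table (GRCm38.p6, the assembly of mm10; 250 bases before to 50 after each start) held entries for 7 of them: H2-Oa, H2-DMa, H2-DMb2, H2-DMb1, H2-Ob, H2-Aa and H2-Eb1. Each was searched on both strands for an X box core, ACNGATG, a Y box core, ATTGG, and the ordered pair, X before Y on 1 strand with 10 to 30 bases between them. The pair was present for 3 of the 7, H2-Eb1, H2-DMb1 and H2-DMb2, against 0.158% of 32851 promoters of the same length. H2-DMb1 and H2-DMb2 are near copies, so these are not independent matches, and the pair was searched because it is known from class II promoters. A Y box core was present for all 7 (for H2-DMa in 1 of its 2 entries), against 37.4% of all promoters. An X box core was present for those with the pair, for H2-Oa and, on the other strand, for H2-Aa, against 9.85% of all promoters. In H2-Oa the X core began 137 bases before the start and the Y core 43, too far apart for the pair. The windows below run from 130 to 41 bases before the RefSeq start and are written on the strand of the gene, with both cores in capitals. They show where letters matching these cores lie in chains and chaperones whose levels are compared below.
H2-Eb1 (chr17:34305737-34305826, plus strand): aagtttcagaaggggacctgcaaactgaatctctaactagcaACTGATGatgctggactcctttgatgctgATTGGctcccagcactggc
H2-DMb2 (chr17:34145119-34145208, plus strand): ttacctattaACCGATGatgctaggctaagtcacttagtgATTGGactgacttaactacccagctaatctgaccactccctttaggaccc
H2-Ob (chr17:34238775-34238864, plus strand): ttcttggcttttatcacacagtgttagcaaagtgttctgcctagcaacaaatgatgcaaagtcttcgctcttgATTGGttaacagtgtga
H2-Aa (chr17:34287864-34287953, minus strand): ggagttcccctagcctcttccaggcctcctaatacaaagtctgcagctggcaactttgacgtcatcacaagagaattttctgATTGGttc
In H2-Eb1 the X core begins 88 bases before the start and 22 bases separate it from the Y core, and in H2-DMb2 the X core begins 120 bases before the start with 23 bases to the Y core. H2-DMb1 had the same 23-base spacing. H2-Ob and H2-Aa show a Y core, 57 and 48 bases before the start, and no X core of these letters on the coding strand. A match describes letters and is not evidence of binding, and the lack of one says nothing about the factor.

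In LinNeg, 9 of the 10 genes fell in libraries labelled KO and 0 rose, where 19.3% of the 17108 genes tested were called lower and 22.1% higher, 41.4% in all. All 9 were at least 2-fold lower, as were 9.59% of the genes tested. The falls ran from 2.46-fold (H2-Ab1) to 14.4-fold (H2-DMb1), and Cd74 was not called. The median log2 fold change of the 10 genes was -2.60, beside 0.16 for all genes tested. In LSK, 4 of the 10 fell and 0 rose, where 29.2% of 16482 genes were called lower and 32.4% higher, 61.6% in all. Of the 4, H2-DMa and H2-Ob were at least 2-fold lower, as were 12.9% of the genes tested. These 4 were the H2-DM and H2-DO chains H2-DMa, H2-DMb1, H2-Oa and H2-Ob, and their falls ran from 1.63-fold to 5.62-fold. The median in LSK was -0.16, beside 0.04 for all genes tested. The same 4 genes were the only members called lower in both tables, where 12.2% of the 15735 genes tested in both were called lower in both. In sorted bulk RNA, fewer cells of a type and less RNA per cell cannot be told apart.

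**Figure D1:**
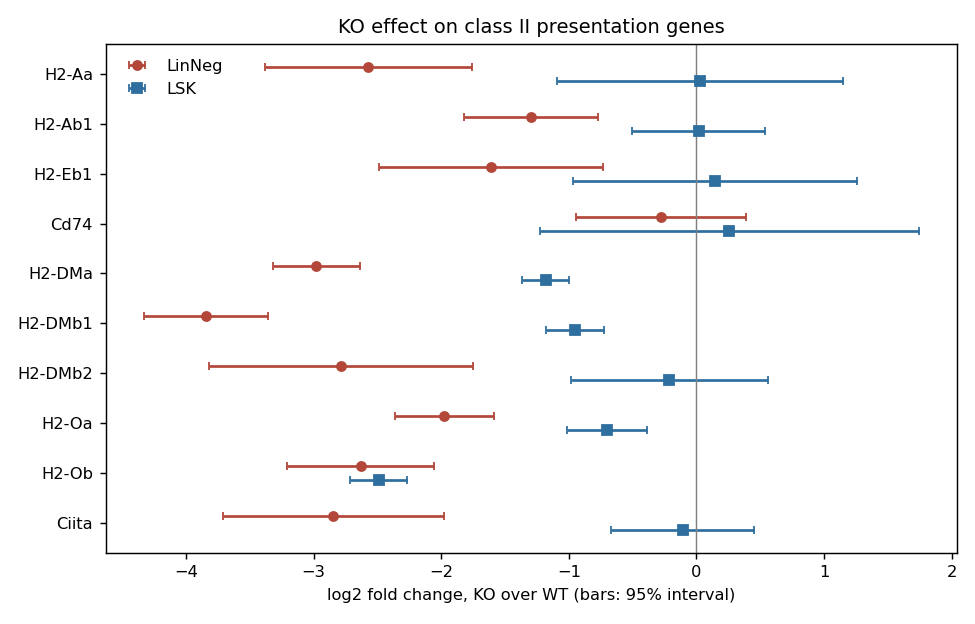
Log2 fold change of libraries labelled KO over WT for the 10 genes (x axis), with 95% intervals as bars, circles for LinNeg and squares for LSK. In LinNeg 9 intervals lie below 0 and that of Cd74 spans it. In LSK only those of H2-DMa, H2-DMb1, H2-Oa and H2-Ob lie below 0.

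Per kilobase of exon, the derived WT level in LinNeg was highest for Cd74 (1446 normalized counts per kb), followed by H2-Oa (1135), H2-DMb1 (726), H2-DMa (645), H2-Ab1 (402), H2-Ob (254), H2-Aa (236), H2-Eb1 (225), H2-DMb2 (86.7) and Ciita (36.7). Neighbours in this order had overlapping 95% intervals except at 3 steps, from H2-Oa to H2-DMb1, from H2-DMa to H2-Ab1 and from H2-Eb1 to H2-DMb2. In LSK the order of the derived WT level per kb was H2-DMa (812), Cd74 (653), H2-Ab1 (413), H2-DMb1 (380), H2-Ob (331), H2-Oa (215), H2-Eb1 (199), H2-Aa (157), H2-DMb2 (63.0) and Ciita (22.7). There only the steps from H2-Ob to H2-Oa and from H2-DMb2 to Ciita had intervals that did not overlap. The DO chains thus stood in opposite order in the 2 tables: H2-Oa was 4.47 times H2-Ob per kb in WT LinNeg and 0.649 times H2-Ob in WT LSK. The tables were normalized separately, so no gene's level is compared across them. The divisor was all merged exons of a gene, from 1407 bases (H2-Oa) to 9535 (Ciita), whichever transcript was expressed. The orders and intervals here, and the ratios per kb below, leave out this uncertainty of length. Before the division, H2-Oa and H2-Ob stood at 1597 and 1367 in WT LinNeg and at 302 and 1778 in WT LSK.

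**Figure D2:**
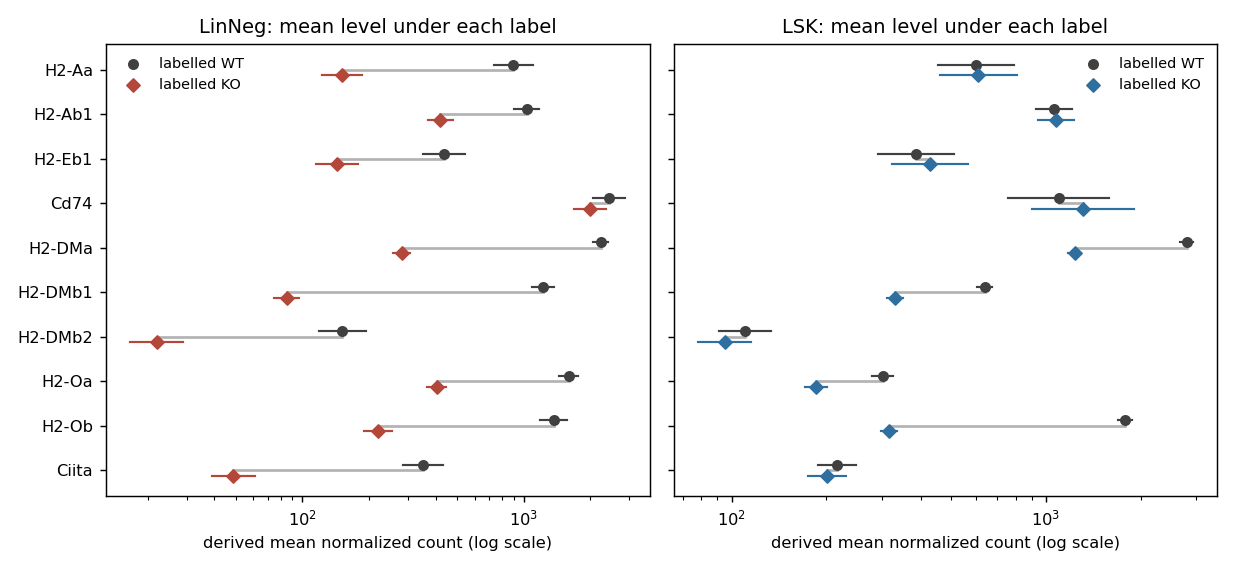
Derived mean normalized count (log axis) of each gene under the WT label (grey circles) and the KO label (coloured diamonds) in LinNeg and LSK, with bars of 1 standard error computed from the spread that the authors' standard error implies. In LinNeg the levels separate for every gene but Cd74. In LSK they separate for H2-DMa, H2-DMb1, H2-Oa and H2-Ob and overlap within error for the other 6 genes.

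The class II chains carry the peptide, H2-Aa as the α chain and H2-Ab1 as the β chain of the I-A molecule. H2-Aa (ENSMUSG00000036594.15, chromosome 17, 34282744 to 34287823, minus strand) went from a derived mean of 897 normalized counts under the WT label to 151 under the KO label in LinNeg. Its log2 fold change in the authors' deposited table was -2.57 (SE 0.41, adjusted p = 6.35e-09). H2-Ab1 (ENSMUSG00000073421.6, 34257689 to 34269419, plus strand) went from 1034 to 421, a log2 fold change of -1.30 in the authors' deposited table (SE 0.27, adjusted p = 7.32e-06). The 95% intervals of the partners, -3.38 to -1.76 and -1.82 to -0.78, overlapped narrowly, and their difference was not tested. H2-Eb1 (ENSMUSG00000060586.11, 34305867 to 34316674, plus strand), the β chain of I-E, went from 437 to 143, and the authors' deposited table gave it -1.61 (SE 0.45, adjusted p = 0.00133). All 3 chains were thus at 16.8% to 40.7% of their WT level.

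In LSK none of the 3 chains was called. H2-Aa stood at 598 under the WT label and 610 under the KO label, and the authors' deposited table gave it a log2 fold change of 0.03 (SE 0.57, adjusted p = 0.971). The same authors' deposited table gave H2-Ab1 0.02 (SE 0.27, adjusted p = 0.956) and H2-Eb1 0.14 (SE 0.57, adjusted p = 0.844). These intervals are wide: for H2-Aa the fold runs from 0.470 to 2.21 and for H2-Eb1 from 0.510 to 2.39. A 2-fold rise lay inside both and was not detectable, and a 2-fold fall lay inside that of H2-Aa. The interval of H2-Ab1 runs from 0.706 to 1.45.

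Cd74, the invariant chain (ENSMUSG00000024610.15, chromosome 18, 60803848 to 60812652, plus strand), was the gene of the set that was not called in LinNeg. Its derived mean was 2427 under the WT label and 2003 under the KO label, and the authors' deposited table gave a log2 fold change of -0.28 (SE 0.34, adjusted p = 0.55). Its 95% interval, -0.94 to 0.39, did not overlap those of H2-Aa, H2-DMa, H2-DMb1, H2-DMb2, H2-Oa, H2-Ob or Ciita, and overlapped those of H2-Ab1 and H2-Eb1. The difference between genes of 1 table was not tested. Per kb, Cd74 was 2.26 times the sum of H2-Aa and H2-Ab1 under the WT label and 5.86 times that sum under the KO label. It made up 27.8% of the summed level of the 10 genes per kb under WT and 61.2% under KO. In LSK the derived means of Cd74 were 1096 and 1311, with a log2 fold change of 0.26 in the authors' deposited table (SE 0.76, adjusted p = 0.787) and a fold interval from 0.428 to 3.34.

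H2-DMb1 and H2-DMa, whose dimer edits the bound peptide, gave the 2 largest falls of the set in LinNeg. H2-DMb1 (ENSMUSG00000079547.4, chromosome 17, 34153072 to 34160230, plus strand) went from a derived mean of 1220 to 85.0, and the authors' deposited table gave it a log2 fold change of -3.84 (SE 0.25, adjusted p = 2.68e-52). H2-DMa (ENSMUSG00000037649.10, 34119541 to 34139101, plus strand) went from 2225 to 282, at -2.98 in the authors' deposited table (SE 0.17, adjusted p = 2.45e-63). Under the KO label H2-DMb1 thus kept 6.97% and H2-DMa 12.7% of the WT level. H2-DMb2 (ENSMUSG00000037548.15, 34143307 to 34151555, plus strand), a second β chain gene, went from 151 to 21.9, at -2.79 in the authors' deposited table (SE 0.53, adjusted p = 1.08e-06).

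In LSK H2-DMa and H2-DMb1 fell too, and less far by the test of the difference given further on. H2-DMa went from 2800 to 1234, a log2 fold change of -1.18 in the authors' deposited table (SE 0.09, adjusted p = 1.07e-35), and H2-DMb1 from 639 to 330, at -0.95 in the authors' deposited table (SE 0.12, adjusted p = 1.59e-15). H2-DMb2 was not called, at 110 and 95.1 (log2 fold change -0.21, SE 0.40, adjusted p = 0.664 in the authors' deposited table). H2-DMb1 and H2-DMb2 are near copies: of the 50-base words of the longest coding transcript, H2-DMb1 shares 27.2% with H2-DMb2 transcripts and H2-DMb2 shares 25.2% with those of H2-DMb1. Reads from the shared stretches may be missing or misplaced, so the split between these 2 genes is uncertain. H2-DMa exons also overlap 360 bases of Brd2 exons on the other strand. Whether counting used strand is not given in the sources used here, and Brd2 itself was at -0.20 in LinNeg and -0.16 in LSK in the authors' deposited table.

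The H2-DO chains, which hold H2-DM back, fell in both populations. H2-Ob (ENSMUSG00000041538.16, chromosome 17, 34238903 to 34254414, plus strand) went from a derived mean of 1367 to 221 in LinNeg, at -2.63 in the authors' deposited table (SE 0.29, adjusted p = 1.07e-17). In LSK it went from 1778 to 316, at -2.49 in the authors' deposited table (SE 0.11, adjusted p = 5.14e-106), the largest fall of the set in that population. H2-Oa (ENSMUSG00000024334.9, 34092340 to 34095234, plus strand) went from 1597 to 406 in LinNeg, at -1.98 in the authors' deposited table (SE 0.20, adjusted p = 9.54e-22). In LSK it went from 302 to 186, at -0.70 in the authors' deposited table (SE 0.16, adjusted p = 2.87e-05). The 95% intervals of H2-Oa (-1.02 to -0.39) and H2-Ob (-2.71 to -2.27) in LSK did not overlap, and per kb the ratio of H2-Oa to H2-Ob went from 0.649 under WT to 2.24 under KO. Per kb, the sum of H2-DMa and H2-DMb1 was 0.987 times that of H2-Oa and H2-Ob under WT and 0.402 times under KO in LinNeg, and 2.19 and 2.91 times in LSK. H2-Oa exons share 321 bases with BC051537 on the other strand, which was at -2.31 in LinNeg (adjusted p = 9.52e-05) and -0.31 in LSK (adjusted p = 0.357), per the authors' deposited table. Reads of the 2 cannot be told apart if strand was not used.

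Ciita (ENSMUSG00000022504.10, chromosome 16, 10480059 to 10528418, plus strand), the transactivator that switches these promoters on, fell in LinNeg and was not called in LSK. Its derived mean went from 350 to 48.6 in LinNeg, a log2 fold change of -2.85 in the authors' deposited table (SE 0.44, adjusted p = 1.39e-09). In LSK it stood at 216 and 201, at -0.11 in the authors' deposited table (SE 0.29, adjusted p = 0.765), with a fold interval from 0.629 to 1.37. In LSK the 4 chaperone chains were called lower and Ciita was not called, and a link between their levels was not tested. Ciita exons share 329 bases with Dexi on the other strand, which was at -0.33 in LinNeg (adjusted p = 0.371) and -0.57 in LSK (adjusted p = 3.24e-06) in the authors' deposited table.

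The effects in the 2 populations were compared as the LSK log2 fold change minus the LinNeg one, divided by the SE of that difference from both tables (normal test, two-sided, with p adjusted by Benjamini-Hochberg over 15735 genes). For 8 of the 10 genes the LSK effect lay above the LinNeg effect, where 17.4% of the genes tested did so, and 0 lay below, where 14.5% did (31.9% in either direction). The difference was 2.89 for H2-DMb1 (SE 0.27, adjusted p = 2.84e-24), 2.74 for Ciita (SE 0.53, adjusted p = 2.25e-06) and 2.60 for H2-Aa (SE 0.71, adjusted p = 0.00129). It was smallest among the called for H2-Oa (1.27, SE 0.26) and weakest for H2-Eb1 (1.75, SE 0.72, adjusted p = 0.0485). H2-Ob was not called, with a difference of 0.14 and a 95% interval from -0.48 to 0.76. Cd74 was not called either, at 0.54 with an interval from -1.09 to 2.16. The populations also differ in the label BMT, which cannot be told apart from the cell type.

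The members split by how much they varied between libraries in LSK. From the authors' standard error and the derived means, a coefficient of variation between libraries of 1 label was worked out for each gene, taking it to be the same under both labels. In LSK it was 7.55% for H2-DMa, 8.67% for H2-DMb1, 8.54% for H2-Ob and 11.9% for H2-Oa, beside a median of 6.82% for genes with a mean of at least 100. It was 64.1% for Cd74, 48.3% for H2-Aa, 48.0% for H2-Eb1 and 22.4% for H2-Ab1. The standard errors of those 4 were larger than those of 98.8% to 99.8% of tested genes whose mean lay within a factor of 2 of theirs. H2-DMb2 (32.1%) and Ciita (23.3%) also lay above 90% of genes of like mean. In LinNeg the implied variation of the 10 genes ran from 14.1% (H2-DMa) to 41.9% (H2-DMb2), and Cd74 alone lay above 98% of genes of like mean.

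B cell transcripts also had a wide spread in LSK. Of 10 B cell markers, 6 had standard errors above 99% of genes of like mean, among them Cd79a, Pax5, Ebf1, Ms4a1 and Cd22, named here after their values were seen. The implied variation of these named genes ran from 117% (Ebf1) to 157% (Ms4a1), and in the authors' deposited table Cd79a stood at 0.03 (SE 1.41). In LSK 2 of the 10 fell and 0 rose, namely Cd79b and Vpreb1 (-0.80 and -2.14 in the authors' deposited table), and the summed derived level of the list was 1375 under WT and 1185 under KO. In LinNeg 0 of the 10 stood above 90% of genes of like mean, and in LSK 7 did. A wide spread in LSK was not confined to B cell markers. There 9 of 12 monocyte and macrophage markers and 5 of 10 endosomal processing genes also stood above 90%. So did 4 of 10 plasmacytoid and 3 of 9 conventional dendritic cell markers, and 0 of 14 class I presentation genes. The part of B cell transcripts, or of the other lists, in the LSK values of the chains and Cd74 was not tested.

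**Figure D3:**
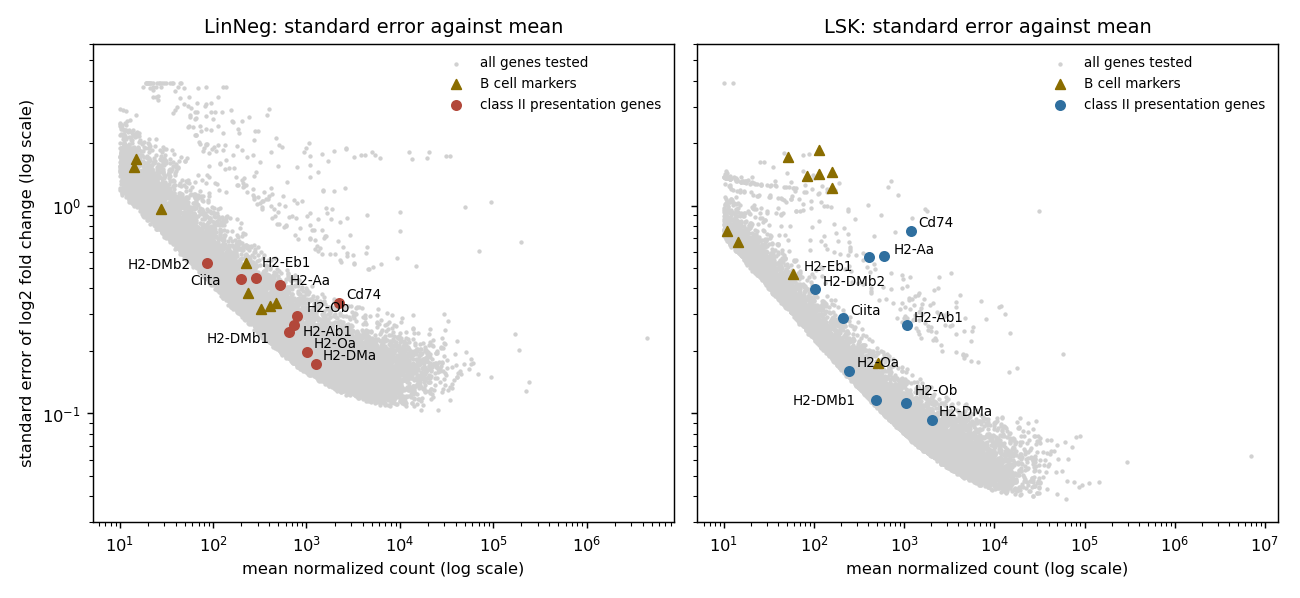
Standard error of the log2 fold change against the mean normalized count (both axes log) for all tested genes with a mean of at least 10 (grey), B cell markers (triangles) and the 10 class II presentation genes (labelled circles). In LSK, Cd74, H2-Aa, H2-Eb1 and H2-Ab1 stand above the cloud together with 6 B cell markers, while H2-DMa, H2-DMb1, H2-Oa and H2-Ob lie within it. Markers of other cell types are not marked separately.

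Genes of other roles sit between the class II genes on chromosome 17. In LinNeg, Brd2, a chromatin reader between H2-Oa and H2-DMa, was not called (-0.20, adjusted p = 0.214 in the authors' deposited table). The immunoproteasome and peptide transporter genes between H2-DMb1 and H2-Ob fell in LinNeg, with log2 fold changes of -0.77 (Psmb9), -0.71 (Tap1), -1.11 (Psmb8) and -0.86 (Tap2) in the authors' deposited table. Their 95% intervals did not overlap those of the flanking H2-DMb1 and H2-Ob. They did overlap those of H2-Ab1 (-1.82 to -0.78) and H2-Eb1 (-2.49 to -0.73) further along. H2-Eb2, a further β chain gene next to H2-Eb1 whose promoter also holds the X and Y pair, was not called in LinNeg (0.05, SE 0.85 in the authors' deposited table). In LSK, Psmb9, Tap1 and Psmb8 were not called (0.08, 0.09 and -0.07 in the authors' deposited table), while Tap2 fell (-0.57, adjusted p = 5.61e-24) and Brd2 fell slightly (-0.16, adjusted p = 0.000608). The pseudogene H2-Ea-ps was listed at 0 in both tables, and Btnl2 had means of 3.14 in LinNeg and 6.03 in LSK.

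**Figure D4:**
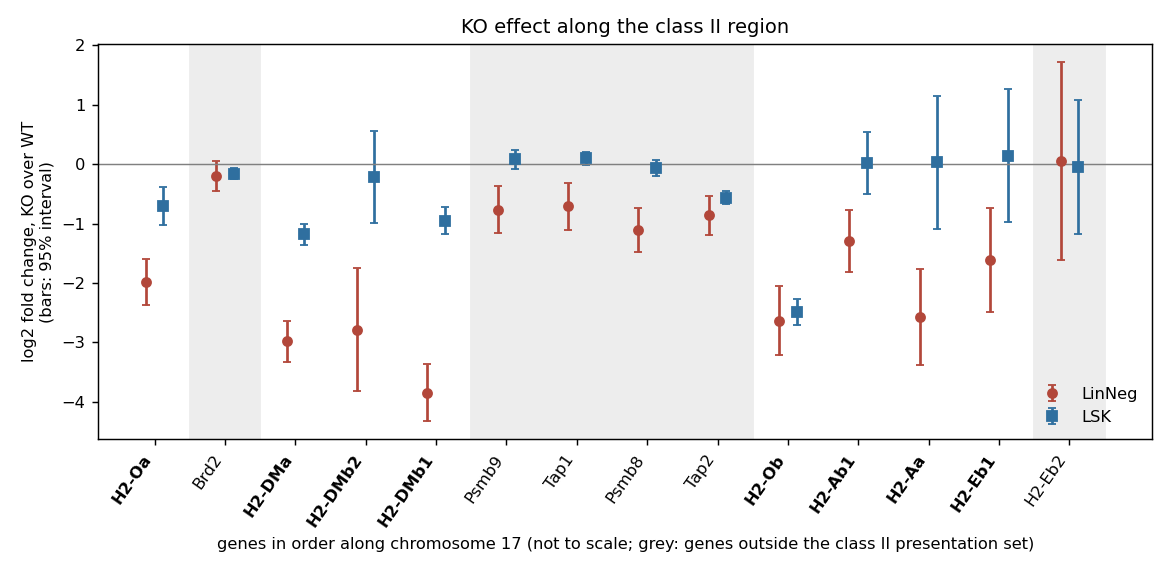
Log2 fold change of KO over WT (y axis, bars 95% intervals) for genes in their order along chromosome 17, with a mean of at least 10 in LinNeg. Bold names are class II presentation genes, grey bands mark the others. Psmb9 to Tap2 lie between -1.11 and -0.71 in LinNeg, above the neighbours H2-DMb1 (-3.84) and H2-Ob (-2.63). Their bars overlap those of H2-Ab1 (-1.30) and H2-Eb1 (-1.61).

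Among the factors that bind the X and Y boxes, 2 of 7 fell and 0 rose in LinNeg (median -0.37). These were the NF-Y subunit Nfya (-0.80, adjusted p = 1.95e-08) and Creb1 (-0.43, adjusted p = 0.0185) in the authors' deposited table. The RFX subunits Rfx5, Rfxank and Rfxap were not called, at -0.38, -0.37 and 0.44 in the authors' deposited table. In LSK 3 fell and 3 rose (median -0.09): Rfx5 was at -0.89, Nfya at -0.64 and Creb1 at -0.35, and Rfxap at 0.43, Nfyb at 0.35 and Nfyc at 0.19, in the authors' deposited table. Of 14 genes that induce or restrain Ciita or its inducers, 7 fell and 3 rose in LinNeg and 6 fell and 3 rose in LSK. Over all genes tested, 19.3% fell and 22.1% rose in LinNeg, and 29.2% fell and 32.4% rose in LSK. The same shares apply to the other lists. This list pools both roles, so its counts have no single direction. The genes that rose in LinNeg, named for that reason, were Socs1 (2.88), Irf4 (1.66) and Prdm1 (1.61) in the authors' deposited table. The smallest adjusted p in LinNeg belonged to Irf8 and Spi1 (PU.1), transcription factors of the myeloid lineage, at -6.07 and -3.15 in the authors' deposited table. In LSK it belonged to the interferon-γ receptor chain Ifngr1 (1.23) and the interleukin-10 receptor chain Il10ra (-2.26) in the authors' deposited table. The LSK values of Irf8 and Spi1 in the authors' deposited table were -1.49 and -0.48, and both were called. Irf8 also counts among the conventional dendritic cell markers below, and Pax5 and Ebf1 of this list among the B cell markers.

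Endosomal processing genes, which include the cathepsins that trim the invariant chain and make peptides, fell in 9 of 10 and rose in 1 in LinNeg (median -1.08). The smallest adjusted p belonged to the protease Ctsh (-2.97, adjusted p = 4.12e-51) and the cathepsin inhibitor cystatin C, Cst3 (-2.52, adjusted p = 4.18e-32), in the authors' deposited table. Of these 10, 5 rose in LSK and 2 fell (median 0.36), led in the authors' deposited table by Ctsz (1.17, adjusted p = 9.9e-73) and the thiol reductase Ifi30 (2.05, adjusted p = 1.05e-55). For 8 of the 10 the LSK effect lay above the LinNeg effect. Sppl2a, the protease that clears the last membrane remnant of the invariant chain, fell in LinNeg (-0.64) and rose in LSK (0.27) in the authors' deposited table. It was the member of the class II turnover list that was found by symbol.

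Class I presentation genes served as the other branch of antigen presentation. In LinNeg 8 of 14 fell and 1 rose (median -0.63). The smallest adjusted p values belonged to the chaperones Calr (-1.29) and Tapbp (-0.96) in the authors' deposited table. The gene that rose was Nlrc5 (1.88). H2-K1 (0.39), H2-D1 (-0.19) and B2m (0.10) were among the 5 not called in LinNeg. These 4 genes are named after their values in the authors' deposited table were seen. In LSK 3 fell and 4 rose (median 0.09), led in the authors' deposited table by Pdia3 (0.73) and Calr (0.75). Psmb8, Psmb9, Tap1 and Tap2 count both here and among the neighbours on chromosome 17.

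**Figure D5:**
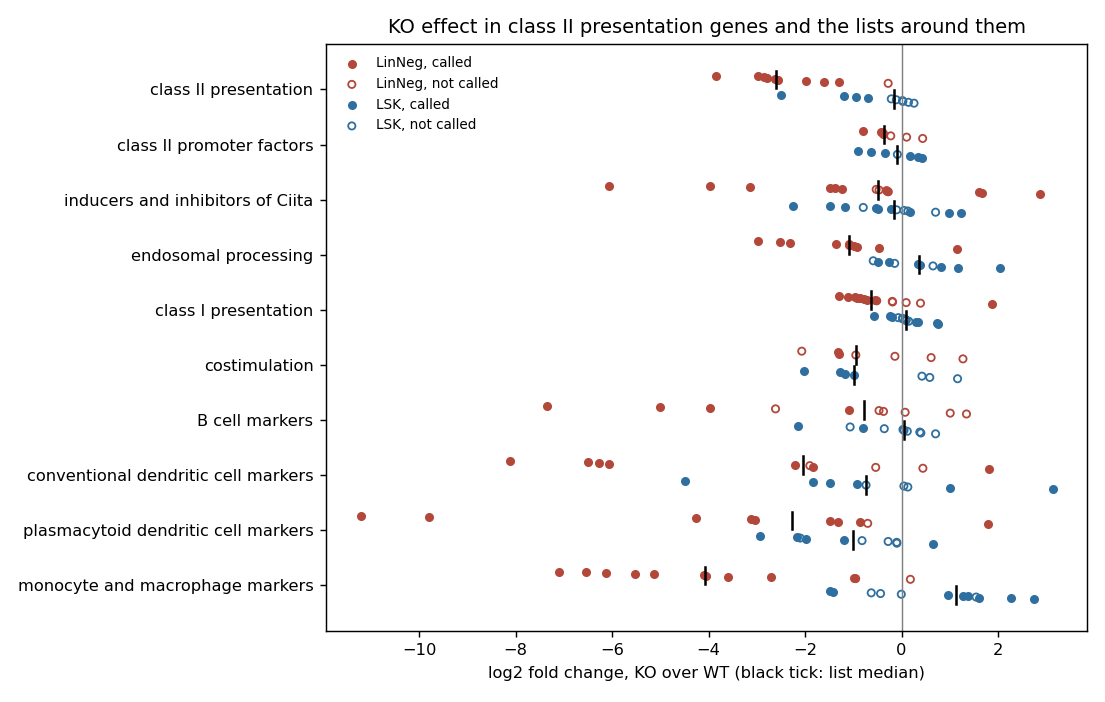
Log2 fold change of KO over WT for each tested gene of the class II presentation set and of the surrounding lists, LinNeg in red and LSK in blue, filled where called, with the list median as a black tick. In LinNeg the medians of the class II genes (-2.60) and of monocyte and macrophage markers (-4.08) lie far below 0, and in LSK they are -0.16 and 1.12.

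In LinNeg, most called markers of the cells that carry class II fell. Monocyte and macrophage markers fell in 10 of 12 and rose in 0 in LinNeg (median -4.08), and their summed derived level went from 55642 under WT to 6847 under KO; Mpeg1 and F13a1 were at -7.10 and -6.12 in the authors' deposited table. Ccr2, also named after its values were seen, held 5405 of that KO sum, and without it the sum went from 44993 to 1443. Conventional dendritic cell markers fell in 6 of 10 and rose in 1 (median -2.05, summed level 40306 and 30466), with Irf8 and Flt3 at -6.07 and -6.51 in the authors' deposited table. Cd24a, named after its values were seen, was the gene that rose, from a derived mean of 8245 to 29122, and without it the summed level of the list went from 32061 to 1344. Plasmacytoid dendritic cell markers fell in 8 of 10 and rose in 1 (median -2.27, summed level 21979 and 7272), with Runx2 and Tlr9 at -3.11 and -9.80 in the authors' deposited table. Without Ccr9, the gene that rose and named for that reason, their summed level went from 21230 to 4681. B cell markers fell in 4 of 10 and rose in 0 (median -0.78, summed level 2199 and 1283), with Cd22 and Vpreb1 at -5.01 and -7.36 in the authors' deposited table. Cd22 alone went from 629 to 19.5. The other 6 genes were not called. Of these, Cd79a (1.01), Ms4a1 (1.35) and Blnk (0.08), named after their values were seen, lay above 0 and the rest below 0. Derived KO means of Siglech (0.350, named after its values were seen), Tlr9 (0.967) and Vpreb1 (0.179) were below 1 normalized count, so these fold changes come from the model and are no ratio of measured levels. The part of these cells in the LinNeg falls was not tested.

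In LSK the counts of these lists were mixed. Monocyte and macrophage markers rose in 6 of 12 and fell in 2 (median 1.12, summed level 7875 under WT and 8916 under KO), with Ly6c2 at 2.27 and Lyz2 at -1.43 in the authors' deposited table. Conventional dendritic cell markers fell in 4 and rose in 2 of 9 tested (median -0.74, summed level 22861 and 20387), with Flt3 at -4.49 and Zbtb46 at 3.14 in the authors' deposited table. Most of that KO sum was again Cd24a (8975 under WT and 18050 under KO), and without it the sum went from 13886 to 2337. That fall rested mostly on Flt3, at 11046 under WT and 492 under KO, and on Irf8, at 2312 and 826. Zbtb46 went the other way, from 92.3 to 812. Plasmacytoid dendritic cell markers fell in 4 and rose in 1 of 10 (summed level 13470 and 5541), with Runx2 at -1.97 and Tcf4 at -1.18 in the authors' deposited table. Runx2 (6151 under WT and 1566 under KO) and Tcf4 (6065 and 2672) held most of both sums. The 5 genes not called included Siglech, Tlr9 and Spib, named here after their values were seen. The part of these cells in the LSK falls of the DM and DO chains was not tested. Markers of the sort and of stem and progenitor cells moved as well. Of 5 such markers, 4 fell and 0 rose in LSK (median -0.98), with Kit at -0.98 (adjusted p = 2.95e-88) and Ptprc at -1.01 (adjusted p = 1.63e-58) in the authors' deposited table. Of the same 5, 1 fell and 1 rose in LinNeg (median 0.36), Cd34 at -2.09 and Ly6a, which encodes Sca-1, at 2.20 in the authors' deposited table. Both genes that define the LSK gate were detected there: the derived levels of Kit were 28724 under WT and 14587 under KO, and those of Ly6a, named because it defines the gate, were 593 and 335. The part of these shifts in the values of the class II genes was not tested.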

How the data were processed

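The submitters' processing notes name HISAT2, SAMtools 1.10, StringTie, DESeq2 and the build mm10, per the labels. Which program counted reads, with which annotation, is not given in the sources used here. Per the file headers, the 2 tables deposited by the authors hold, for each gene, a mean of normalized counts (a signal on a linear scale), a log2 fold change and its standard error on the log2 scale, a Wald statistic (a score), and a p-value with its adjusted p-value, as DESeq2, run by the authors, writes them. Of 24542 rows in each table, 5 that name no gene and 4 with repeated symbols were left out; the row for reads outside any feature held 38.0% of the summed LinNeg means and 26.4% of those in LSK. To undo rounding in the deposited column, each log2 fold change was taken as the product of its Wald statistic and SE. The mean under each label follows from the overall mean, the fold change and 3 libraries on each side, the implied variation from the standard error, and levels per kb from the merged exons of GENCODE M21. The members and lists were chosen with earlier results of these data known. The named genes were all members, the region neighbours, the promoter factors, and the 2 called genes of smallest adjusted p in each list and table; others are marked where they are named. The ubiquitin ligase genes March1 and March8 were not matched, because such symbols stand as dates (1-Mar) in the tables. Promoters come from RefSeq. A member of the B cell list is not reported by name here. The alternatives tried were a threshold of 0.01, other sets of genes for the adjustment, recentring on the median gene, and a 2-fold minimum. Scripts ran in Python 3.11.15 with scipy 1.17.1, numpy 2.4.6, pandas 2.3.3 and, for figures, matplotlib 3.10.9.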

Additional observations from a re-analysis of the deposited data

Results flagged for a closer look

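The KO effect differed between LSK and LinNeg for 8 of the 10 class II presentation genes by the test of the difference itself (adjusted p under 0.05 over all genes). The LSK minus LinNeg difference of the log2 fold changes was 2.89 for H2-DMb1, 2.74 for Ciita, 2.60 for H2-Aa, 2.57 for H2-DMb2, 1.80 for H2-DMa, 1.75 for H2-Eb1, 1.32 for H2-Ab1 and 1.27 for H2-Oa. In each of these the LinNeg effect was the lower one. H2-DMa, H2-DMb1 and H2-Oa fell in both populations and further in LinNeg, while Ciita, H2-DMb2 and the 3 class II chains were called in LinNeg alone. The label BMT of the LSK libraries cannot be told apart from the cell type in these differences.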

How the results depend on the processing

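The 9 calls in LinNeg, the 4 in LSK and the 8 differences between populations kept their number when p was adjusted without genes whose mean was under 10, and when fold changes were recentred on the median gene tested. With a threshold of 0.01 they numbered 9, 4 and 7. Asking for at least 2-fold gave 9 in LinNeg, 2 in LSK and 8 differences; the LSK count moved because H2-DMb1 and H2-Oa changed by less than 2-fold. Adjusting over every gene with a p left 9 and 4. The median gene stood at 0.16 in LinNeg and 0.04 in LSK. Relative to it Cd74 was at -0.43 in LinNeg, still not called (adjusted p = 0.319), and the uncalled H2-Aa and H2-Ab1 in LSK changed sign, to -0.01 and -0.02. An alternative chosen after seeing the data left out of each marker list the gene of highest derived KO mean. That choice favours removing genes that hold up the KO sum, so it is one-sided. Flt3 and Runx2, of highest derived WT mean in their LSK lists, were kept in. The log2 ratio of summed KO over WT levels then changed sign for B cell markers in LSK (-0.21 to 0.17, without Cd79b), monocyte and macrophage markers in LSK (0.18 to -0.031, without F13a1) and gate markers in LinNeg (-0.20 to 0.059, without Ptprc). With the X and Y cores at any distance, 1.09% of promoters held the pair in place of 0.158%. Leaving out single libraries was not run, because the tables hold no values per library. No paired analysis was possible because the tables hold no values per library. Library depths are unknown. The wide LSK intervals of the chains and Cd74 went with an implied variation between libraries of 22.4% (H2-Ab1) to 64.1% (Cd74), which limits what they can show.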

Other observations

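T cells need a second signal beside peptide on class II, and some ligands give it while others withhold it. Of 7 costimulation genes, 2 fell and 0 rose in LinNeg (median -0.95), and 4 fell and 0 rose in LSK (median -0.98). The inhibitory ligands Cd274 (PD-L1) and Pdcd1lg2 (PD-L2) fell in LinNeg and in LSK. In the authors' deposited table Cd274 was at -1.29 in LinNeg (SE 0.24, adjusted p = 9.94e-07) and -1.17 in LSK (SE 0.11, adjusted p = 2.33e-26), and Pdcd1lg2 at -1.31 in LinNeg (SE 0.26, adjusted p = 3.84e-06) and -2.03 in LSK (SE 0.28, adjusted p = 4.35e-12). The other genes of the list, named after their values were seen, were not called in LinNeg. In LSK the activating ligands Cd86 (-1.28, adjusted p = 0.0179) and Icosl (-0.98, adjusted p = 2.62e-06) fell too in the authors' deposited table, while Cd80, Cd40 and Cd83 were not called and had derived means of at most 37.1 normalized counts in either population.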
